A study of Mus musculus with 3 samples.

Results

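The genes described here encode the mitochondrial respiratory chain and ATP synthase, and they were followed in single-cell RNA sequencing of mouse bone marrow LSK cells. They were taken by symbol, as every gene beginning with Nduf, Uqcr, Cox4, Cox5, Cox6, Cox7, Cox8, Atp5 or mt-, together with Cycs. The rule uses no measured value, though it was set with earlier results of these data known. This gave 98 of the 14721 genes in the count table. There were 74 nuclear-encoded subunits (36 of complex I, 8 of complex III, 15 of complex IV and 15 of complex V, the ATP synthase), 13 genes carried on mitochondrial DNA, Cycs, and 10 assembly or associated factors. Ndufa4 was placed with complex IV, where its protein is found. Subunits with other symbols, such as Cyc1 of complex III and all of complex II, lie outside the rule.

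The respiratory chain passes electrons from NADH and succinate to oxygen and pumps protons across the inner mitochondrial membrane, and complex V uses the resulting gradient to make ATP. Complexes I, III, IV and V are each built from subunits of both origins, with the catalytic membrane core partly encoded by mitochondrial DNA and the remaining subunits transcribed in the nucleus and imported. Quiescent haematopoietic stem cells are known for their reliance on glycolysis and for low respiration, and progenitors that enter erythroid and myeloid differentiation for increasing use of oxidative phosphorylation.

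LSK cells (negative for lineage markers, positive for Sca-1 and Kit), which include stem cells and multipotent progenitors, were profiled in 3 libraries of the Chromium 3' v2 chemistry, 1 for each genotype. The libraries were WT, labelled Spop(+/+) Myd88 (+/+), KO, labelled Spop(D/D) Myd88(+/+), and DKO, labelled Spop(D/D) Myd88(-/-). SPOP brings substrates to a ubiquitin ligase built on CUL3, and MyD88 carries signals from Toll-like and interleukin-1 receptors. The promoter behind the Spop deletion, the age of the animals and any pooling of animals are not given in the labels. Each genotype has 1 library and so no replicate, hence no test was made between genotypes and every difference below is between these libraries. All intervals are 95% and cover counting error only.

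The libraries held 8147, 4920 and 8184 cells and 85700749, 101393024 and 109920419 UMIs in WT, KO and DKO, with medians of 9245, 17319 and 12404.5 UMIs per cell. Levels are UMIs per 1000000 UMIs of the library (CPM). A 3' tag marks 1 end of each transcript, so levels were not divided by gene length. Myd88 stood at 13.7 (WT), 25.8 (KO) and 4.47 CPM (DKO), and Spop at 70.7, 63.1 and 77.1 CPM, where tags outside the deleted part of Spop check nothing. Ly6a, which encodes Sca-1, was at 90.4, 85.1 and 89.5 CPM and Kit at 94.8, 41.5 and 65.9 CPM. Xist was at 1537 CPM in DKO and at most 0.187 in the other libraries, so sex and genotype cannot be told apart in comparisons with DKO. Pairs of libraries shared 46 to 83 cell barcodes. The cell mix also moved with genotype. Of the neutrophil progenitor markers measured, 9 of 11 were at least 1.5-fold higher in KO than in WT, as were 16 of 17 erythroid markers, while 11 of 11 B lineage and 8 of 8 lymphoid-primed markers were at least 1.5-fold lower. Their summed levels in WT, KO and DKO were 1288, 8112 and 2397 CPM for neutrophil progenitors, 708, 1724 and 891 for erythroid, 964, 44.7 and 65.6 for B lineage and 1092, 238 and 443 for lymphoid-primed markers. The stem cell markers went both ways, with 2 of 11 at least 1.5-fold higher and 7 lower in KO than in WT, and their summed level was 1890.2, 2913 and 1740.2 CPM. Markers of macrophages summed to at most 3.14 CPM and of endothelium and stroma to at most 5.45 CPM.

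Promoter sequence was read first, since nuclear genes of the chain are textbook targets of the nuclear respiratory factor NRF1. RefSeq windows of 250 bases before to 50 bases after the start site (GRCm38.p6) were found for 69 of the 98 genes, 61 of them nuclear subunits. The palindromic NRF1 motif, whose letters are the capitals in the stretches that follow, lay in the window of 5 of the 61 subunit genes (8.20%), against 2.20% of the 10731 genes of the count table with a window. The ETS-type motif CCGGAAG was present in 14 of 61 (23.0%, against 18.9%), and a YY1 motif in 4 of 61 (6.56%, against 1.67%), each searched on both strands, with no overlap between matches of different motifs at these genes. Of all 27025 genes in the RefSeq table, 1.07% held the NRF1 motif, 9.93% the ETS-type motif and 0.755% the YY1 motif. A match is a run of letters and not a binding site. Matches of the NRF1 motif lay wholly before the start site of 5 of the 69 genes with a window. The stretches around them follow, each 5′ to 3′ along its gene with the match in capitals.
Ndufaf4 (chr4:24897940-24898009, plus strand): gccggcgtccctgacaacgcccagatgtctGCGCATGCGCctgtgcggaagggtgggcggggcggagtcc
Atp5k (chr5:108434410-108434479, minus strand): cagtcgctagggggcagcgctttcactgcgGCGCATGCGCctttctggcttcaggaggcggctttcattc
Cox6a1 (chr5:115349081-115349150, minus strand): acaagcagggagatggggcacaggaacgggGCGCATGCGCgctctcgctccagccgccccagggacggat
Atp5g2 (chr15:102671050-102671119, minus strand): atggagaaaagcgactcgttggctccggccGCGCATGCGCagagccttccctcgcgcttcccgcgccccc
Ndufa11 (chr17:56717672-56717741, plus strand): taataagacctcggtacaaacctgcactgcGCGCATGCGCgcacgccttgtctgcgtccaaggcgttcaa
These 5 genes had KO/WT ratios of 1.53, 1.53, 1.43, 1.12 and 1.53 in the order shown. The match was thus found at genes on either side of the 1.5-fold mark.

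The libraries were first compared at the level of whole complexes. Nuclear subunits together made up 2.28% of UMIs in WT, 3.15% in KO and 2.41% in DKO, with summed levels of 22828 (WT), 31489 (KO) and 24089 CPM (DKO). The 13 mitochondrial genes summed to 30650.4 (WT), 28749 (KO) and 27207 CPM (DKO). Nuclear transcripts were therefore higher in KO than in the other libraries, whereas by library totals mitochondrial transcripts were highest in WT and lowest in DKO. With TMM or median-of-ratios scaling, or in cells of 8000 to 16000 UMIs alone, the pooled mitochondrial level was higher in KO than in WT (log2 ratios 0.058, 0.076 and 0.020). The ratio of nuclear to mitochondrial UMIs was 0.745 in WT, 1.10 in KO and 0.885 in DKO, and KO was the only library in which nuclear transcripts outnumbered mitochondrial ones.

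The same order of libraries was seen in every complex. Nuclear complex I subunits summed to 6709.6 (WT), 9093 (KO) and 7165 CPM (DKO). Complex III subunits summed to 2391 (WT), 3368 (KO) and 2472 CPM (DKO), and complex IV subunits to 6511 (WT), 9215 (KO) and 6742 CPM (DKO). Complex V subunits summed to 7216 (WT), 9813 (KO) and 7710.4 CPM (DKO). In each case DKO lay between WT and KO and nearer to WT. The nuclear-to-mitochondrial ratio differed widely between complexes, from 1.44 for complex I down to 0.414 for complex IV in WT, and for complex IV it was 0.672 in KO and 0.493 in DKO.

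**Figure D1:**
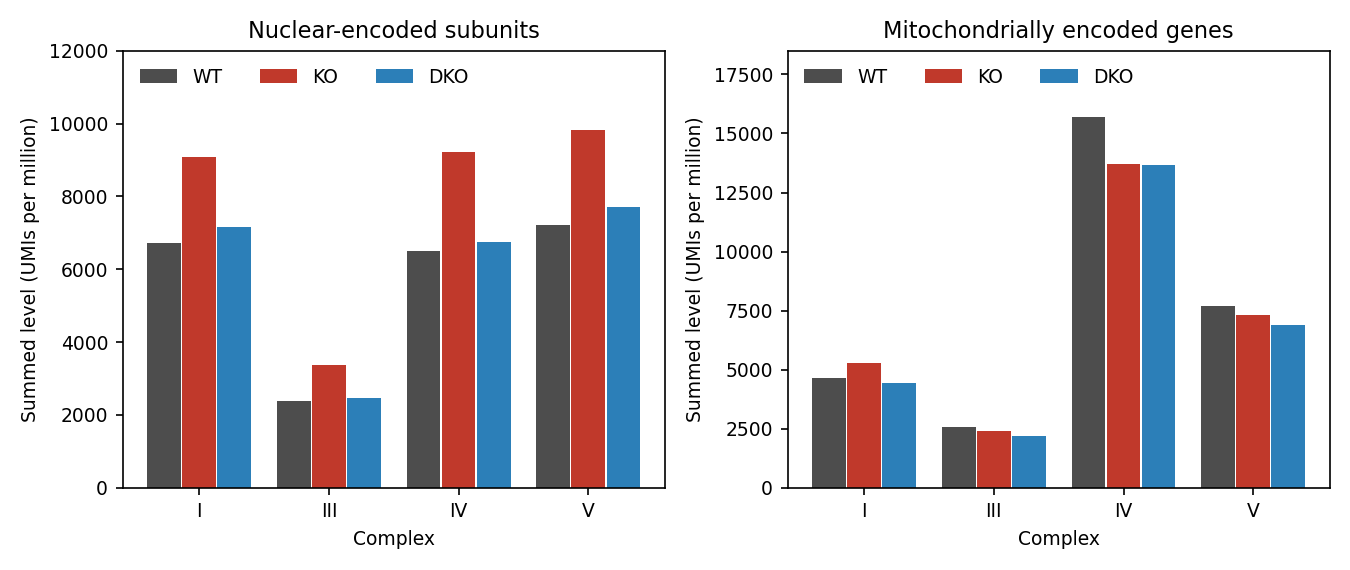
Summed level (CPM, bars from 0) of nuclear-encoded subunits (left) and mitochondrially encoded genes (right) by complex in the WT, KO and DKO libraries, 1 library each with no error bars. The KO bar is the highest for nuclear subunits of all 4 complexes, for example 9215 CPM for complex IV against 6511 in WT, while among mitochondrial genes it is the highest for complex I alone.

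In the comparison of KO with WT, the pooled nuclear ratio was 1.379 (1.377 to 1.382). A gene was counted as higher or lower at 1.5-fold where it averaged at least 5 CPM in the libraries compared. Of 73 nuclear subunits measured, 19 were higher and 0 lower, against 7.77% higher and 17.1% lower among all 9046 genes measured. Of the 73, 71 had a ratio above 1, and the median log2 ratio was 0.45, beside -0.08 for all genes. Scaling by TMM raised every log2 KO/WT ratio by 0.15, to medians of 0.61 for nuclear subunits and 0.08 for all genes. By library totals 72 of 73 subunits lay above the all-gene median, a count that a shift common to all genes cannot change. With a difference of 25% over the lower library as the mark, 55 subunits were higher and 1 lower, against 20.2% and 31.5% of all genes.

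Complex I oxidises NADH, and its nuclear subunits comprise a catalytic core and many accessory proteins. None of the 7 nuclear core subunits was counted as higher in KO than in WT. Of the 29 accessory subunits, 8 were counted as higher, and their ratios ran from 1.13 to 1.61. This division by role was made with the values known and carries no test. Ndufa5, an accessory subunit of the matrix arm, was at 127 (WT), 205 (KO) and 124 CPM (DKO), a KO/WT ratio of 1.61 (1.57 to 1.65). Ndufs6, a zinc-binding accessory subunit, was at 170.0, 274 and 161 CPM in the same order, a ratio of 1.61 (1.58 to 1.64). For both genes KO stood above the other libraries, which lay close together. The most abundant subunit, Ndufb9 of the membrane arm, was at 312, 449 and 354 CPM (KO/WT 1.44, interval 1.42 to 1.46). Among the lowest ratios was that of the membrane-arm subunit Ndufb11, at 294, 331 and 305 CPM (1.13, interval 1.11 to 1.14).

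Complex III passes electrons from ubiquinol to cytochrome c. Its members gave the widest range of ratios among nuclear subunits at over 100 CPM. Uqcrq, a small membrane subunit (chromosome 11, 53427922 to 53430831, minus strand of GRCm38, here and below from GENCODE vM21), was at 242 (WT), 543 (KO) and 238 CPM (DKO), and its KO/WT ratio was 2.24 (2.20 to 2.28). Uqcr11, another small subunit, was at 266, 473 and 254 CPM (1.77, interval 1.75 to 1.80), and Uqcr10 at 281, 488 and 276 CPM (1.74, interval 1.71 to 1.77). These 3 small subunits were the complex III genes counted as higher. The core proteins Uqcrc1 and Uqcrc2 and the Rieske iron-sulphur protein Uqcrfs1 had ratios of 1.38, 1.20 and 1.28. Uqcrc2 was at 139.9, 167 and 182 CPM, with DKO the highest. Uqcrh, the acidic hinge protein that contacts cytochrome c1 and the most abundant of the group, was at 733, 716 and 676 CPM. Its KO/WT ratio of 0.977 (0.967 to 0.988) turned to above 1 when multiplied by the TMM factor of 1.11.

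Cytochrome c, the soluble carrier between complexes III and IV and a trigger of apoptosome assembly when released, is encoded by Cycs (chromosome 6, 50562563 to 50566538, minus strand). Cycs was at 242 (WT), 491 (KO) and 239 CPM (DKO), a KO/WT ratio of 2.03 (1.999 to 2.06). By library totals the DKO/WT ratio was 0.991 (0.973 to 1.0095), an interval that includes 1. Multiplied by the TMM factor of 0.971, the whole interval lies below 1. KO stood well above both other libraries.

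Complex IV, cytochrome c oxidase, reduces oxygen. Of its 14 measured nuclear subunits 6 were counted as higher in KO, against 7.77% of all genes: Cox4i2, Cox5a, Cox5b, Cox6b1, Cox7a2 and Cox7b. Cox5b, a matrix-side subunit, was at 477 (WT), 791 (KO) and 538 CPM (DKO), a KO/WT ratio of 1.66 (1.64 to 1.68). Cox4i1, the common form of subunit IV and the most abundant nuclear subunit on average, was at 1025, 1318 and 1027 CPM (1.29, interval 1.28 to 1.30). Ndufa4 was at 932, 1111 and 1085 CPM (1.19, interval 1.18 to 1.20) and Cox8a at 793, 1119 and 760.2 CPM (1.41, interval 1.40 to 1.42). KO was the highest library for all 4 of these genes.

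Several complex IV subunits have a second, tissue-restricted isoform, and these did not all follow the housekeeping forms. Cox4i2, the isoform known from lung and from low oxygen, was at 4.22 (WT), 11.9 (KO) and 5.56 CPM (DKO), a KO/WT ratio of 2.81 (2.50 to 3.17) that rests on 362 UMIs in WT and 1203 in KO. Its share of Cox4i transcripts was 0.411% (WT), 0.892% (KO) and 0.538% (DKO). Cox6a2, the heart and skeletal muscle form of subunit VIa (chromosome 7, 128205435 to 128206387, minus strand), was at 26.7 (WT), 17.8 (KO) and 6.996 CPM (DKO), so WT was highest and DKO lowest. Its KO/WT ratio was 0.668 (0.628 to 0.711) and its share of Cox6a transcripts was 8.42% (WT), 4.13% (KO) and 2.39% (DKO), while Cox6a1 was at 290.4, 414 and 286 CPM. Cox6b2, known as a testis form, was at 69.5, 76.4 and 90.2 CPM (KO/WT 1.10, interval 1.06 to 1.14) and made up 12.97% (WT), 9.44% (KO) and 15.3% (DKO) of Cox6b transcripts, with Cox6b1 at 466, 733 and 501 CPM. Cox7a1, the muscle form, was at 1.75, 1.499 and 0.910 CPM, the only subunit under the level minimum in all pairs, and Cox7a2 was at 334, 550.3 and 346 CPM.

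Complex V couples proton flow through a membrane ring of c subunits to the catalytic F1 head. The 5 F1 subunits had KO/WT ratios of 1.21 to 1.35 and none was counted. The c subunit is encoded by 3 genes whose mature proteins are identical, and they differed from each other. Atp5g1 (chromosome 11, 96068852 to 96075670, minus strand) was at 485 (WT), 973 (KO) and 521 CPM (DKO), a ratio of 2.01 (1.98 to 2.03). Atp5g2 was at 805, 904 and 881 CPM (1.12, interval 1.11 to 1.13) and Atp5g3 at 305, 457 and 309 CPM (1.498, interval 1.48 to 1.52). Atp5g1 made up 30.4% (WT), 41.7% (KO) and 30.5% (DKO) of the 3 c-subunit transcripts, and Atp5g2 50.5% (WT), 38.7% (KO) and 51.5% (DKO), so Atp5g2 was the most abundant in WT and DKO and Atp5g1 in KO. Atp5k, the e subunit that takes part in dimers of the synthase, was at 223, 341 and 198 CPM (1.53, interval 1.4995 to 1.55) and was the other gene counted as higher. The gamma subunit of the rotor, Atp5c1, was at 409, 496 and 474 CPM (1.21, interval 1.19 to 1.23).

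Among the 10 factors, 3 were counted as higher in KO and 0 lower, against 7.77% and 17.1% of all genes. The 3 were the complex I assembly factors Ndufaf3, Ndufaf4 and Ndufaf6. Ndufaf6 was at 19.2 (WT), 31.2 (KO) and 24.0 CPM (DKO), a KO/WT ratio of 1.63 (1.53 to 1.73). Cox7a2l (chromosome 17, 83501918 to 83517330, minus strand), which helps complexes III and IV to join in supercomplexes, was at 661 (WT), 452 (KO) and 655 CPM (DKO). Its KO/WT ratio of 0.684 (0.676 to 0.693) was the lowest of the factors. Despite its symbol, it went the other way from the Cox7a2 subunit it resembles.

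**Figure D2:**
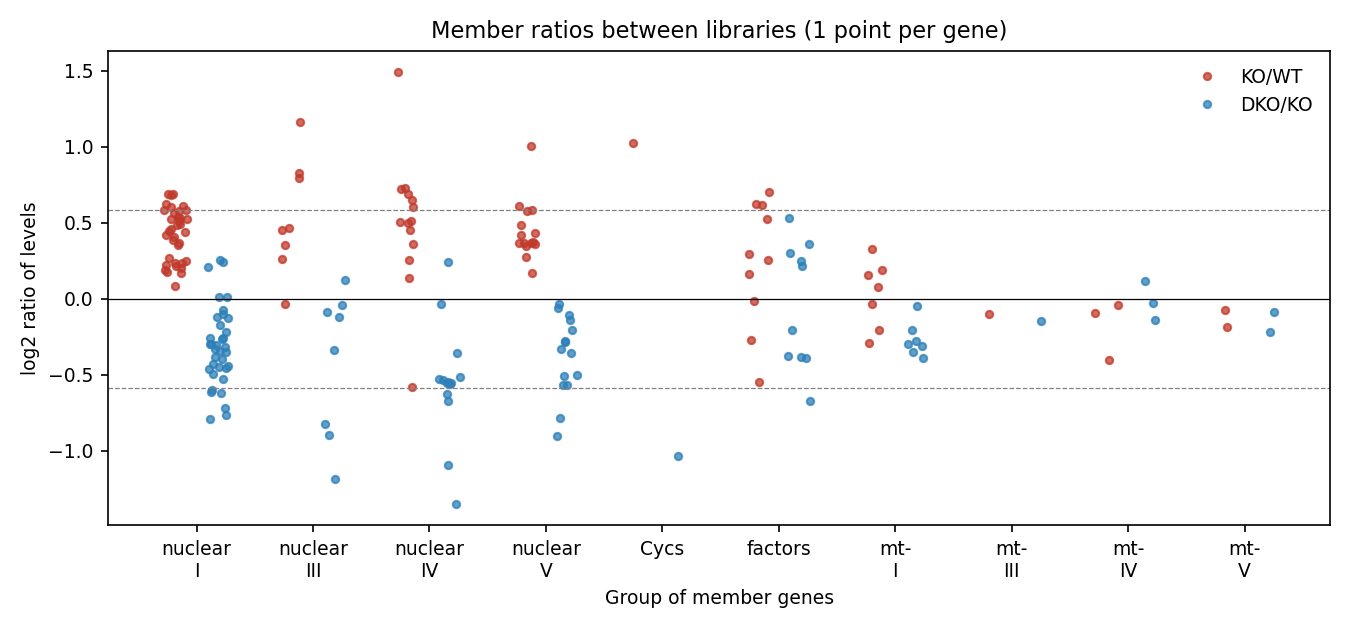
KO/WT and DKO/KO log2 ratio of each measured gene by complex and origin, 1 point per gene, with both comparisons sharing the KO library. Nuclear subunits lie mostly above 0 in KO/WT (71 of 73) and below 0 in DKO/KO (66 of 73), and mitochondrial genes lie nearer to 0 in KO/WT.

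The 13 mitochondrial genes encode 7 subunits of complex I, cytochrome b of complex III, 3 subunits of complex IV and 2 of complex V. The pooled KO/WT ratio was 0.938 (0.936 to 0.940), and the sign of the pooled log2 ratio turned with scaling as given above. In either direction 0 of 13 were counted, against 7.77% higher and 17.1% lower among all genes. The genes did not all move together. mt-Nd1 was at 1803 (WT), 2259 (KO) and 1963 CPM (DKO), a KO/WT ratio of 1.253 (1.24 to 1.26), the highest of the 13. mt-Co1, the catalytic subunit of cytochrome c oxidase, was at 6264, 4728 and 5136 CPM, a ratio of 0.755 (0.752 to 0.758), the lowest. mt-Co1 stayed below 1 and mt-Nd1 above 1 under every scaling tried.

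The other complex I genes were mt-Nd2 at 872, 996 and 782 CPM (1.14), mt-Nd3 at 248, 276 and 223 CPM (1.12) and mt-Nd4 at 1490.1, 1571 and 1294 CPM (1.05), with KO highest each time. mt-Nd5 was at 188, 154 and 149 CPM (0.817), and mt-Nd6, the gene read from the opposite strand, at 8.28, 7.19 and 5.84 CPM (0.868). mt-Nd4l at 38.1, 37.2 and 28.4 CPM (0.978) and mt-Atp8 at 29.5, 25.9 and 22.2 CPM (0.880) lie upstream of mt-Nd4 and mt-Atp6 on shared transcripts, so a 3' tag seldom falls in them and their low levels do not give the level of the message. mt-Atp6, the most abundant, was at 7687, 7303 and 6887 CPM (0.950). mt-Cytb was at 2576, 2406 and 2174 CPM (0.934), mt-Co2 at 3619, 3525 and 3201 CPM (0.974) and mt-Co3 at 5828, 5459 and 5343 CPM (0.937). For mt-Atp6, mt-Cytb, mt-Co2, mt-Co3 and mt-Nd4l the ratio was below 1 by library totals and above 1 with TMM. As a share of all mitochondrial UMIs, which no scaling alters, mt-Co1 was 20.4% in WT, 16.4% in KO and 18.9% in DKO, and mt-Nd1 5.88%, 7.86% and 7.21%.

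The DKO library was then set against the same KO library, to ask how levels stand when Myd88 is also absent. The pooled nuclear ratio was 0.765 (0.764 to 0.766). Of 73 subunits measured 15 were lower and 0 higher, against 6.32% lower and 17.9% higher among all 8973 genes, and the median log2 ratio was -0.35 beside 0.13 for all genes (-0.55 beside -0.06 with TMM). At the 25% mark 42 were lower and 0 higher, against 15.5% and 33.8%. Uqcrq had a DKO/KO ratio of 0.439 (0.433 to 0.446), Cycs 0.488 (0.481 to 0.495), Atp5g1 0.536 (0.530 to 0.541) and Cox6a2 0.393 (0.360 to 0.427). The DKO/KO ratio was above 1 for 7 subunits, and for 5 of them the interval excluded 1. Among these were Ndufv1 at 1.20 (1.16 to 1.23), Cox6b2 at 1.18 (1.15 to 1.22), Ndufa9 at 1.15 (1.12 to 1.19) and Uqcrc2 at 1.09 (1.07 to 1.11), while the intervals of Ndufs3, 1.009 (0.987 to 1.03), and Ndufs4, 1.007 (0.985 to 1.03), included 1. With TMM, 4 of 73 were above 1. The mitochondrial ratio was 0.946 (0.945 to 0.948), and mt-Co1 alone was higher in DKO (1.086, interval 1.082 to 1.090) by library totals and lower with TMM.

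In DKO against WT the nuclear ratio was 1.055 (1.053 to 1.057). Of 72 subunits measured 0 were higher and 1, Cox6a2, was lower (0.262, interval 0.241 to 0.285), against 3.62% and 3.55% of all 9205 genes. At the 25% mark 7 were higher and 1 lower, against 17.2% and 11.9%. The NADH-binding core subunit Ndufv1 had the highest ratio, 1.42 (1.38 to 1.46), from 84.1 CPM in WT and 119.6 in DKO. The mitochondrial genes gave a pooled ratio of 0.888 (0.886 to 0.889), and 12 of 13 were below 1 with library totals, TMM and median-of-ratios scaling alike. The exception was mt-Nd1, at 1.09 (1.08 to 1.10). In these libraries DKO therefore had nuclear levels near those of WT together with lower mitochondrial levels.

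Cells with more UMIs carried a larger share of nuclear respiratory transcripts in every library, and KO cells had the most UMIs. In WT the median share per cell was 1.88% in cells of up to 8000 UMIs and 3.07% in cells of over 24000. In KO it was 2.33% and 3.45%, and in DKO 1.95% and 2.80%. The KO share was the highest of the 3 libraries in each of the 5 ranges of UMIs examined. Between 8000 and 12000 UMIs the medians were 2.06% in WT, 2.44% in KO and 2.08% in DKO, and between 16000 and 24000 they were 2.63%, 3.02% and 2.60%. In cells of 8000 to 16000 UMIs alone, the pooled log2 KO/WT ratio was 0.24, against 0.46 over all cells, and 2 subunits rather than 19 were counted as higher. The share of all genes was not counted in those cells. The part of cell size and depth in the difference was not tested further.

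Mitochondrial shares went the other way with UMIs in WT. There the median fell from 3.23% at up to 8000 UMIs to 2.53% at over 24000. DKO medians lay between 2.63% and 2.83% over the 5 ranges, and from 8000 to 24000 UMIs they were the lowest of the 3 libraries in each range. No cell had more than 9.99% mitochondrial UMIs, so levels above that are not represented.

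**Figure D3:**
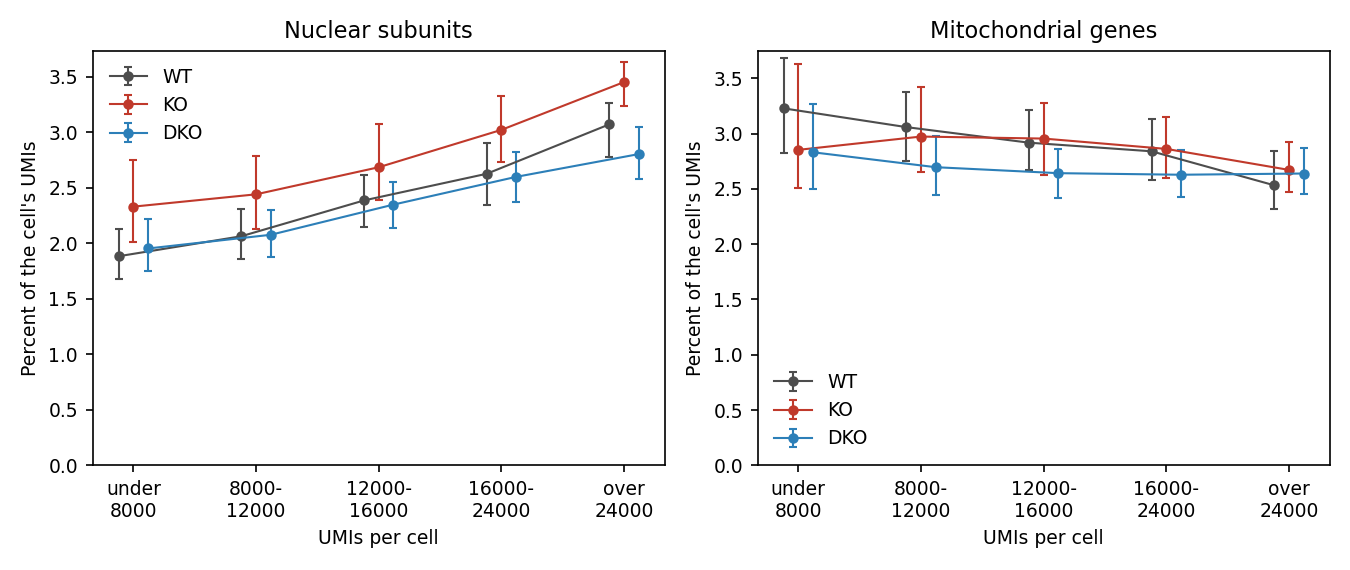
Median share of each cell's UMIs (%) from nuclear subunits and from mitochondrial genes, by range of UMIs per cell, in each library. Nuclear shares increase along the axis in every library, in KO from 2.33% to 3.45%, and the KO points lie above those of WT and DKO throughout.

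To ask which cells carried these transcripts, cells of all libraries were clustered without any gene of the chain, and a cluster was given a class name only from marker genes. Classes are called like a cell type because they rest on transcripts alone, and the cells left unnamed were 60.7% (WT), 41.2% (KO) and 66.6% (DKO). The classes differed in size between genotypes: erythroid progenitor-like cells made up 0.307%, 21.2% and 1.11% of WT, KO and DKO cells, neutrophil progenitor-like cells 0.344%, 22.8% and 0.660%, and stem cell-like cells 8.86%, 0.569% and 8.60%. Clustering was run without batch correction, and some unnamed clusters came almost wholly from a single library. Cluster 2 held 1876 KO cells of 1901, cluster 0 held 1856 DKO cells of 1990 and cluster 3 held 1403 WT cells of 1472. In KO the cells of cluster 2 had 28360 nuclear CPM. How far class sizes reflect such separation of libraries was not tested. Values are given where a class had at least 50 cells in a library.

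Nuclear subunits were lowest in stem cell-like cells and highest in neutrophil progenitor-like cells. The latter class was named from 5 neutrophil progenitor markers, but its top 15 genes also held Ly6c2, F13a1 and Ccr2 of the monocyte-dendritic list. It may therefore be mixed. At resolution 1.5 the class held 946 KO cells at 32396 CPM, and an unnamed cluster led by Ly6c2 and F13a1 held 740 KO cells. Stem cell-like cells had 18671 CPM in WT (722 cells) and 19387 in DKO (704). Lymphoid-primed-like cells had 20922 in WT, 22087 in KO and 21157 in DKO. Megakaryocyte progenitor-like cells had 25705, 28890.5 and 26283. The top 15 genes of both their clusters also held Fcer1a and Ms4a2 of the basophil and mast cell list and Gata1 of the erythroid list. This class may therefore be mixed too. B lineage-like cells of WT, the committed lymphoid class, had 26990.4. Erythroid progenitor-like cells had 31620.1 in KO and 29313 in DKO, and neutrophil progenitor-like cells 35190.4 in KO and 29523 in DKO. The classes therefore spread over a wider range than any class did between libraries.

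Mitochondrial genes ran in a narrower range and in nearly the opposite order. In WT they were at 32676 CPM in stem cell-like, 31906 in lymphoid-primed-like, 29364 in megakaryocyte progenitor-like and 28212 in B lineage-like cells. In KO they were at 31751 in lymphoid-primed-like, 31080.2 in erythroid, 27579.5 in megakaryocyte and 27203 in neutrophil progenitor-like cells. The erythroid class was the exception, with high levels of both kinds. The nuclear-to-mitochondrial ratio ran from 0.571 in WT stem cell-like cells to 1.29 in KO neutrophil progenitor-like cells, whose median of 35513 UMIs per cell was the highest of any class against 7269 in WT stem cell-like cells. Over the 19 clusters, nuclear level and median UMIs had a Pearson correlation of 0.85 (Spearman 0.88), and nuclear and mitochondrial levels one of -0.40 (Spearman -0.39), given as a description since clusters share libraries and depth. Among cells of 8000 to 16000 UMIs, nuclear levels were 19546 in WT stem cell-like, 25348 in WT megakaryocyte progenitor-like, 29059 in KO erythroid and 32551 in KO neutrophil progenitor-like cells (85 cells). These classes kept the order they had over all cells. WT B lineage-like cells did not, at 24850 and so below WT megakaryocyte progenitor-like cells, which they exceeded over all cells.

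**Figure D4:**
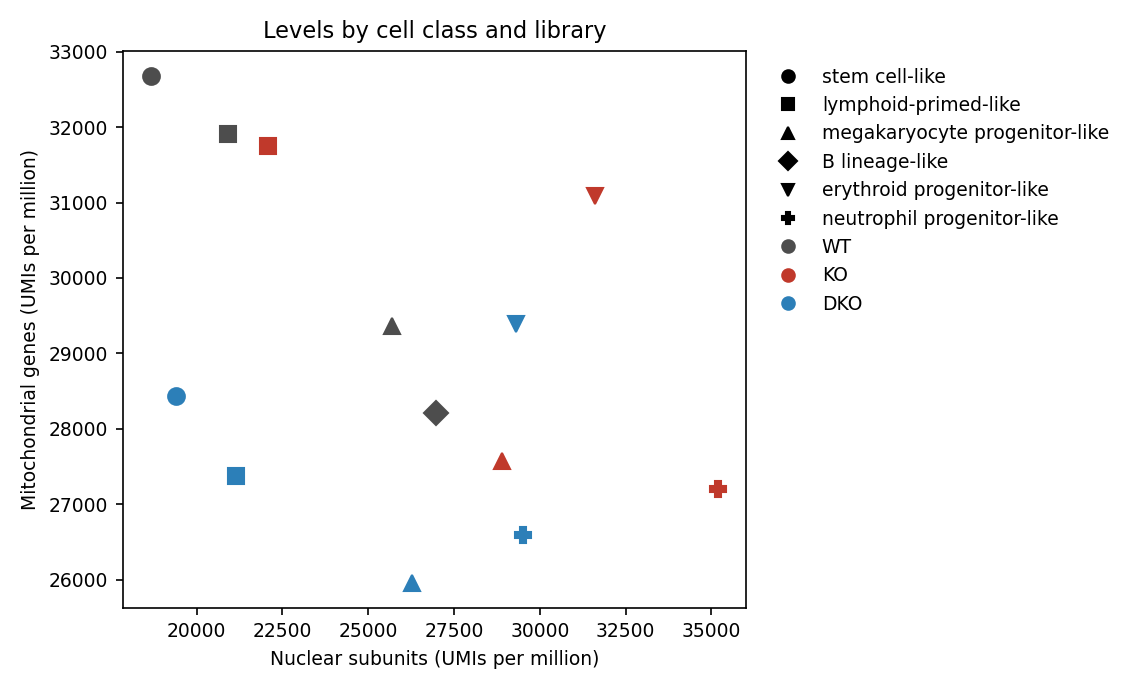
Nuclear against mitochondrial summed level (CPM; the axes do not start at 0) for each named class with at least 50 cells in a library. WT stem cell-like cells lie at 18671 nuclear and 32676 mitochondrial CPM, and KO neutrophil progenitor-like cells at the opposite corner with 35190.4 and 27203.

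Classes of the same library were set against each other gene by gene, counting genes at a mean of at least 20 CPM. In WT the nuclear ratio of stem cell-like over megakaryocyte progenitor-like cells was 0.726 (0.721 to 0.732), with 23 of 71 subunits lower and 0 higher, against 14.7% and 9.98% of all genes. The mitochondrial ratio was 1.113 (1.106 to 1.120). In DKO the same classes gave 0.738 (0.733 to 0.742), with 19 of 71 lower and 0 higher (all genes 13.04% and 11.3%), and a mitochondrial ratio of 1.095 (1.089 to 1.101). The lower subunits in WT included Atp5g1 (0.539), Uqcrq (0.560) and Cox5a (0.550), and Cycs, which is not counted among the subunits, was at 0.412. Stem cell-like over lymphoid-primed-like cells gave nuclear ratios of 0.892 (0.886 to 0.899) in WT and 0.916 (0.909 to 0.923) in DKO, with 2 of 72 lower and 0 higher in each (all genes 8.79% and 8.37% in WT, 6.21% and 9.83% in DKO).

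The B lineage, neutrophil and erythroid classes had higher nuclear levels than the class each was set against. WT B lineage-like over lymphoid-primed-like cells gave 1.29 (1.28 to 1.30), with 17 of 72 subunits higher and 2 lower, against 13.9% and 12.9% of all genes, and a mitochondrial ratio of 0.884 (0.880 to 0.889). The accessory subunit Ndufs5 (2.18) and Uqcrq (1.94) were among the higher subunits, Cycs was at 1.85, and the lower subunits were Cox6a2 (0.312) and Cox6b2 (0.597). KO neutrophil over megakaryocyte progenitor-like cells gave 1.218 (1.213 to 1.223), with 6 of 71 higher and 1, Cox6b2 (0.385), lower (all genes 14.8% and 15.1%). There Cycs was at 2.12 and Uqcrq at 1.98. KO erythroid over megakaryocyte progenitor-like cells gave 1.094 (1.089 to 1.100), with 2 of 71, Cox6a1 (1.52) and Cox6b2 (1.79), higher and 0 lower (all genes 8.84% and 8.52%), and a mitochondrial ratio of 1.127 (1.122 to 1.132). In DKO the neutrophil class gave 1.12 (1.11 to 1.14) with 1 higher and 0 lower of 71 (all genes 8.95% and 19.9%), and the erythroid class 1.115 (1.106 to 1.125) with 4 higher and 0 lower (all genes 10.1% and 18.7%).

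Genotypes were also compared within classes, where differences in class size do not enter. In megakaryocyte progenitor-like cells, which came from clusters 6 and 11 in all libraries, the KO/WT nuclear ratio was 1.124 (1.117 to 1.131), against 1.38 over whole libraries. Whether the make-up of this class, which may be mixed, differed between libraries was not tested. Of 71 subunits 63 were above 1, but 0 were counted in either direction (all genes 1.32% higher and 2.45% lower), and the median log2 ratio was 0.15 beside -0.03 for all genes. Atp5g1 was at 1.39 (1.33 to 1.45), Uqcrq at 1.33 (1.26 to 1.41) and Cycs at 1.251 (1.18 to 1.33). The mitochondrial ratio there was 0.939 (0.934 to 0.945). Restricting the class to cells of 8000 to 16000 UMIs, chosen after seeing the data, gave nuclear levels of 25348 in WT, 26565 in KO and 24855 in DKO. Over the 7 clusters with at least 20 cells in every library, standardised to their WT shares, the pooled log2 KO/WT ratio was 0.13 with 2 subunits higher, and the DKO/KO ratio -0.10 with 2 lower. Those clusters held 37.2% (WT), 39.2% (KO) and 44.3% (DKO) of cells. Clusters 1, 4 and 5 had the most weight, with 1228, 722 and 493 WT cells, but held only 84, 28 and 26 KO cells. The standardised KO levels therefore rest largely on few cells. Leaving out erythroid, neutrophil and B lineage cells, the log2 ratios were 0.35 and -0.25, with 4 higher and 4 lower. Both nuclear ratios were nearer to 0 under these settings and kept their sign. The share of all genes higher or lower was not counted for standardised shares or without those classes.

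In lymphoid-primed-like cells, a single cluster with only 84 KO cells, the KO/WT nuclear ratio was 1.06 (1.04 to 1.07) and the mitochondrial ratio 0.995 (0.984 to 1.006), an interval that includes 1. Of 72 subunits 1, Cox6a2, was higher and 0 were lower (all genes 1.63% and 6.40%). Cycs was at 0.946 (0.818 to 1.09), unlike its ratio over whole libraries, and Uqcrq at 1.47 (1.30 to 1.66). Fewer KO cells in this class limit the precision of single genes. Median UMIs per cell in the class were 8530 in WT and 12265.5 in KO. Among its cells of 8000 to 16000 UMIs, nuclear levels were 20981 CPM in WT and 20871 in KO (59 cells). KO was thus not above WT in that range, and the part of depth in the ratio was not tested further.

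DKO over KO within classes gave nuclear ratios of 0.910 (0.905 to 0.914) in megakaryocyte, 0.958 (0.945 to 0.971) in lymphoid-primed-like, 0.927 (0.919 to 0.935) in erythroid and 0.839 (0.830 to 0.848) in neutrophil progenitor-like cells. All 4 were nearer to 1 than the 0.765 over whole libraries. The megakaryocyte class had 0 of 71 subunits counted in either direction (all genes 5.35% higher and 1.03% lower), as did the erythroid class (all genes 8.91% and 9.56%), whose cells came mainly from cluster 12 in KO (989 of 1042) and from cluster 17 in DKO (89 of 91). In the lymphoid-primed class 2 of 72 were higher, Uqcrc1 and Cox6b2, and 2 lower, Cox6a2 and Uqcrq (all genes 11.2% and 2.85%). In the neutrophil class, with 54 DKO cells, 1 of 71 was higher, Cox6b2 at 2.23 (1.81 to 2.73), and 3 lower, Uqcrq at 0.551 (0.504 to 0.601), Uqcr11 at 0.628 (0.572 to 0.688) and Uqcr10 at 0.666 (0.608 to 0.729) (all genes 8.28% and 7.74%). Median UMIs per cell in that class were 35513 in KO and 24898 in DKO, and their part in the ratio was not tested.

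Between DKO and WT the lower mitochondrial level was present in each class with enough cells. The ratio was 0.870 (0.865 to 0.876) in stem cell-like, 0.858 (0.853 to 0.863) in lymphoid-primed-like and 0.884 (0.879 to 0.889) in megakaryocyte progenitor-like cells, while the nuclear ratios were 1.04 (1.03 to 1.05), 1.011 (1.005 to 1.02) and 1.022 (1.017 to 1.028). Of 12 mitochondrial genes measured, 1 was above 1 in each class, mt-Nd1, at 1.09 (1.06 to 1.13), 1.06 (1.04 to 1.08) and 1.07 (1.05 to 1.09) in the same order. mt-Co1 was at 0.842 (0.830 to 0.854), 0.817 (0.808 to 0.826) and 0.824 (0.813 to 0.835). Among nuclear subunits, the stem cell-like class had 1 of 71 higher, Ndufv1, and 0 lower (all genes 5.29% and 1.41%), the lymphoid-primed class 0 of 72 higher and 1, Cox6a2, lower (all genes 2.02% and 2.003%), and the megakaryocyte class 0 of 71 in either direction (all genes 2.67% and 0.753%).

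Single genes differed in how they were distributed over the classes. Cycs and Atp5g1 broadly followed the nuclear total. Cycs was at 111 CPM in WT stem cell-like, 208 in lymphoid-primed-like, 270.5 in megakaryocyte progenitor-like and 383 in B lineage-like cells, and at 363 in KO erythroid and 716 in KO neutrophil progenitor-like cells. Atp5g1 was at 310.3, 396, 575 and 677 in the WT classes, 1014 in KO erythroid and 1225 in KO neutrophil progenitor-like cells. Atp5g2 varied less, from 662 in WT stem cell-like to 1019 in DKO erythroid progenitor-like cells, and was below Atp5g1 in KO neutrophil progenitor-like cells at 828. mt-Co1 ran the other way, with 7575 in WT stem cell-like and 4275 in KO neutrophil progenitor-like cells, and mt-Nd1 was highest in the erythroid class, at 2857 in KO against 1459 in WT stem cell-like cells.

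Among the named classes Cox6a2 had its highest level per UMI in lymphoid-primed-like cells, at 117 (WT), 177 (KO) and 62.8 CPM (DKO). WT B lineage-like cells had 36.5 and KO neutrophil progenitor-like cells 17.6. In KO the larger neutrophil class nonetheless held more Cox6a2 UMIs, 677 against 189 in the lymphoid-primed class, of 1807 in the library. In WT stem cell-like and megakaryocyte progenitor-like cells it was at 0.741 and 1.43, and DKO megakaryocyte progenitor-like cells had 0 counts, which allows up to 0.169 CPM. The lymphoid-primed class held 15.1% (WT), 1.71% (KO) and 7.62% (DKO) of cells. Within it Cox6a2 had KO/WT and DKO/WT ratios of 1.51 (1.29 to 1.76) and 0.537 (0.483 to 0.597), so over whole libraries KO was lower than WT while within this class it was higher.

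Cox7a2l had the reverse distribution to the nuclear total, with 843 CPM in WT stem cell-like and 790.5 in WT lymphoid-primed-like cells, 466 in KO erythroid and 330.1 in KO neutrophil progenitor-like cells. In megakaryocyte progenitor-like cells it was at 567, 532 and 556 in WT, KO and DKO, closer together than over whole libraries. Cox6b2 was highest in erythroid progenitor-like cells, at 172 in KO and 244 in DKO, against 37.0 in KO neutrophil and 24.8 in WT B lineage-like cells. Among the WT and KO classes Cox4i2 ran from 0.366 in KO erythroid (6 UMIs) to 10.6 in KO neutrophil progenitor-like cells (408 UMIs), with 8.89 in WT stem cell-like cells. Cox6a2 and Cox6b2 were thus highest in different classes.

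**Figure D5:**
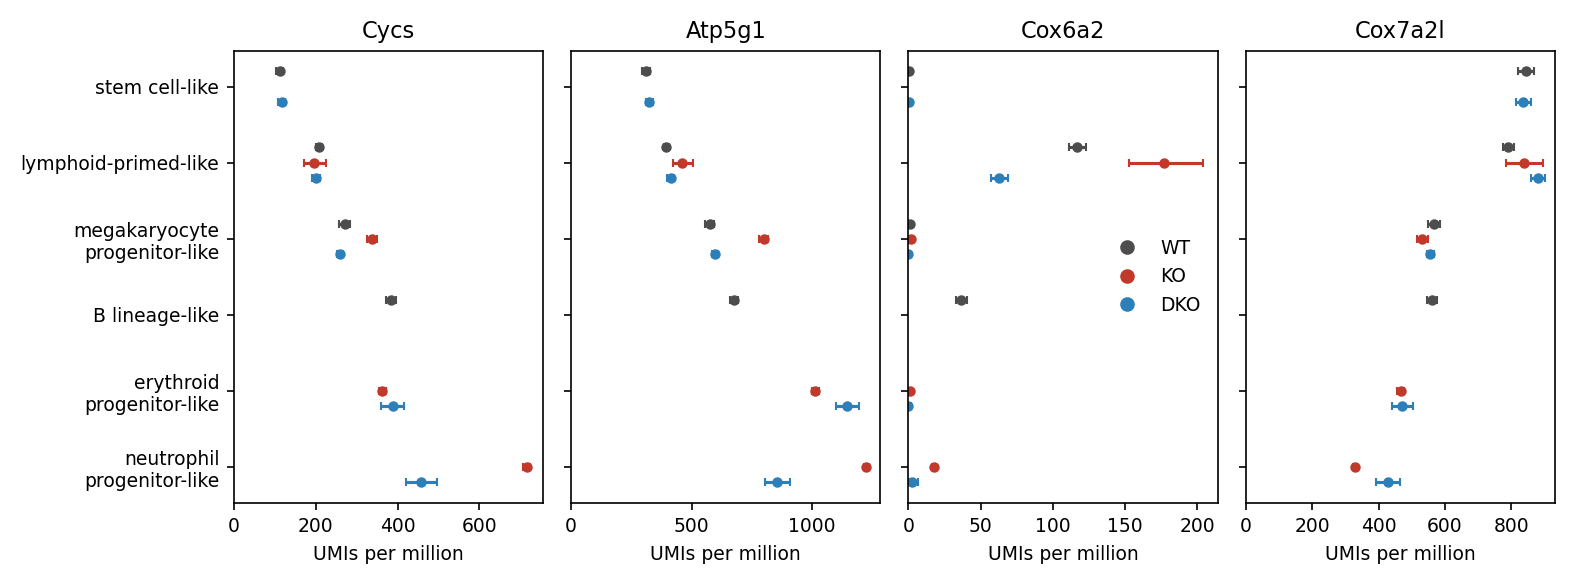
Level (CPM, from 0) of Cycs, Atp5g1, Cox6a2 and Cox7a2l in each named class with at least 50 cells, coloured by library, with 95% Poisson intervals for counting error. Cycs and Atp5g1 are highest in KO neutrophil progenitor-like cells, Cox6a2 in lymphoid-primed-like cells (117 CPM in WT) and Cox7a2l in stem cell-like and lymphoid-primed-like cells.

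Cycling cells were compared with the rest after thinning each cell to 5500 UMIs for the call, which left out 683 WT, 0 KO and 178 DKO shallower cells. Nuclear levels were 25061 CPM in cycling and 22510.3 in other WT cells, and 25495 and 23690.4 in DKO. In KO they were 30757 and 31617, the opposite order. Cycling cells had more UMIs, with medians of 15002 against 9262 in WT. Among cells not called cycling KO still had the highest nuclear level of the 3 libraries.

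Other genes of mitochondrial energy metabolism were read from lists that the symbol rule does not cover, against the same background of 7.77% higher and 17.1% lower. Of 8 complex II genes measured, which link the tricarboxylic acid cycle to the chain, 1 was higher and 0 lower in KO than in WT (median log2 ratio 0.18). It was Sdhd, a membrane anchor, at 119, 182 and 135 CPM, and the assembly factor Sdhaf4 had the lowest level ratio of its list, at 74.8, 61.1 and 76.3 CPM. Of 13 tricarboxylic acid cycle genes 2 were higher and 0 lower (median 0.43), the higher genes being Idh3a, a part of isocitrate dehydrogenase, at 69.0, 110.2 and 88.5 CPM and malate dehydrogenase Mdh2 at 248, 372 and 317 CPM. Idh3b, another part of isocitrate dehydrogenase, had the lowest ratio of that list, at 72.9, 68.4 and 85.6 CPM. Of 22 assembly genes for complexes III to V, 2 were higher and 1 lower (median 0.33). Atpif1, the inhibitor of ATP synthase run in reverse, was at 644, 1232 and 742 CPM (KO/WT 1.91, interval 1.89 to 1.93), and Ttc19, a complex III factor, at 22.6, 13.2 and 21.0 CPM (0.583, interval 0.543 to 0.625).

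Genes that copy and transcribe mitochondrial DNA, and regulators of the nuclear genes, had medians near 0. Of 12 genes of mitochondrial DNA expression measured 1 was higher and 0 lower (median 0.01). The higher gene was Slirp, which with Lrpprc stabilises mitochondrial messages, at 117, 181 and 111 CPM (1.55, interval 1.51 to 1.59), and the lowest ratio was that of Mterf4 at 16.6, 13.4 and 18.9 CPM. Of 8 regulators 0 were higher and 1 lower (median 0.00). The lower gene was Gabpb1, a subunit of the ETS-family factor GABP, at 40.1, 26.3 and 45.4 CPM (0.656, interval 0.624 to 0.691), while its partner Gabpa was at 14.4, 18.05 and 13.6 CPM (1.249, interval 1.16 to 1.34). Of 6 carriers 2 were higher and 0 lower (median 0.28), the higher genes being the outer-membrane channel Vdac2 at 224, 350.0 and 292 CPM and the ADP/ATP carrier Slc25a5 at 819, 1238 and 1055 CPM. The related channel gene Vdac3 had the lowest ratio of that list, at 129, 129 and 148 CPM. In DKO against KO the medians were 0.00 for complex II, -0.12 for the tricarboxylic acid cycle, -0.09 for assembly, 0.20 for mitochondrial DNA expression, 0.06 for regulators and -0.04 for carriers, beside 0.13 for all genes.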

How the data were processed

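The data are single-cell 3' transcript counts from LSK cells of 3 libraries, 1 per genotype. The authors deposited whole-number UMI counts for 14721 genes in the cells they kept, and all values come from that count table. The deposited normalized table was not used. Per the submitters' processing notes, the tools included bcl2fastq, Cell Ranger and Seurat, and mm10 is listed as a build. Their roles, versions and the treatment of reads that match pseudogenes or nuclear copies of mitochondrial DNA are not given in the sources used here, so genes with near-identical copies are uncertain.

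Counts were summed per library and divided by its total (CPM). Ratios carry exact conditional binomial 95% intervals and levels exact Poisson intervals. A floor is 3 counts of the total. A gene was called at 1.5-fold with a pair mean of at least 5 CPM, or 20 CPM within classes. Cells were clustered with scanpy 1.11.5 (2000 variable genes without members of the chain, ribosomal, cell cycle or sex-linked genes, 30 components, 20 neighbours, Leiden resolution 1), without batch correction. A class name needed 3 of its markers among the top 15 genes and a lead of 2. Cells with over 1% of thinned UMIs from S phase genes, or from G2 and M phase genes, were called cycling. Doublets were scored with Scrublet, no cells were removed, and an alternative left out the highest scores at 0.8% per 1000 cells. Positions are from GENCODE vM21, in which 96 of 98 symbols matched 1 gene, and promoters from RefSeq. The ratios, their intervals and the 1.5-fold calls were tested on simulated counts with counting error only, for genes at 20 CPM or more. Clustering, class naming and the cycling call were not tested in this way.

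Genes named were all mitochondrial genes, Cycs, in each complex the most abundant subunit and the 2 highest and 2 lowest KO/WT ratios, isoform families, the highest and lowest factors, and the highest and lowest of each other list. Others were named after their values were seen, and 1 gene that the rule names is not reported here. The members and lists were chosen with earlier results of these data known. Alternatives were TMM (edgeR 4.0.16) and median-of-ratios scaling, equal cell weight, a UMI window, doublet and class filters, standardised cluster shares, other thresholds and other resolutions.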

Additional observations from a re-analysis of the deposited data

How the results depend on the processing

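Every pooled nuclear ratio over whole libraries kept its sign under the alternatives run. In cells of 8000 to 16000 UMIs, some nuclear ratios within classes changed direction. These were KO/WT in lymphoid-primed-like cells, and DKO/WT in lymphoid-primed-like and megakaryocyte progenitor-like cells. Pooled log2 ratios of nuclear subunits were 0.46 for KO/WT, -0.39 for DKO/KO and 0.078 for DKO/WT. In the same order they were 0.61, -0.58 and 0.035 with TMM scaling, 0.63, -0.59 and 0.045 with median-of-ratios scaling, 0.45, -0.36 and 0.088 with equal weight per cell, 0.24, -0.24 and 0.0016 with cells of 8000 to 16000 UMIs. They were 0.46, -0.39 and 0.075 with no highest Scrublet scores, 0.35, -0.25 and 0.11 with no erythroid, neutrophil and B lineage classes, 0.13, -0.097 and 0.034 with standardised cluster shares and 0.47, -0.39 and 0.081 without Cox4i1. Pooled log2 ratios of mitochondrial genes were -0.092 for KO/WT, -0.080 for DKO/KO and -0.17 for DKO/WT. In the same order they were 0.058, -0.27 and -0.21 with TMM scaling, 0.076, -0.28 and -0.20 with median-of-ratios scaling, -0.080, -0.11 and -0.19 with equal weight per cell, 0.020, -0.19 and -0.17 with cells of 8000 to 16000 UMIs. They were -0.091, -0.078 and -0.17 with no highest Scrublet scores, -0.084, -0.10 and -0.19 with no erythroid, neutrophil and B lineage classes, -0.043, -0.15 and -0.20 with standardised cluster shares and -0.099, -0.078 and -0.18 without mt-Atp6. The mitochondrial KO/WT ratio changed sign with TMM, with median-of-ratios and in the UMI window. The 19 subunits higher in KO/WT and 15 lower in DKO/KO became 40 and 34 with TMM scaling, 41 and 35 with median-of-ratios scaling, 2 and 6 with cells of 8000 to 16000 UMIs, 4 and 4 with no erythroid, neutrophil and B lineage classes, 2 and 2 with standardised cluster shares, 55 and 42 with a 25% mark. The 0 lower in KO/WT became 1 with equal weight, the UMI window, the Scrublet filter and the 25% mark, the 0 higher in DKO/WT became 7 at 25%, and the 1 lower there became 2 with no level minimum. Apart from the main setting, the share of all genes was counted at the 25% mark only. The other counts therefore have no background to be read against. The cause of these changes was not tested. At resolution 0.6 levels (CPM) moved to nuclear 20594 and mitochondrial 31656 in WT lymphoid-primed-like cells, mitochondrial 30924 in KO erythroid progenitor-like cells, nuclear 34356 and mitochondrial 27555 in KO neutrophil progenitor-like cells. At resolution 1.5 levels (CPM) moved to nuclear 25859.8 in WT megakaryocyte progenitor-like cells, nuclear 29585 and mitochondrial 27713 in KO megakaryocyte progenitor-like cells, nuclear 26543 and mitochondrial 26109 in DKO megakaryocyte progenitor-like cells, nuclear 31178 and mitochondrial 30886 in KO erythroid progenitor-like cells, nuclear 32396 and mitochondrial 28349.6 in KO neutrophil progenitor-like cells. Stem cell-like and megakaryocyte progenitor-like classes were not found at resolution 0.6, nor lymphoid-primed-like at 1.5, so these gave no value. In megakaryocyte progenitor-like cells the UMI window, chosen after seeing the data, changed the KO/WT log2 ratios from 0.17 to 0.068 (nuclear) and from -0.090 to -0.026 (mitochondrial). No paired analysis was possible because each genotype has 1 library and no result comes from a test. Depth limits classes of few cells, above all 54 DKO neutrophil and 84 KO lymphoid-primed-like cells. With no second library per genotype, the spread between animals or preparations is unknown, and median UMIs per cell, cell mix and, for DKO, sex go with genotype.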
